A study of Rattus norvegicus with 6 samples.

Results

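Rere is the rat gene with 23 of the 11061 circular RNAs (circRNAs) in the deposited table, and this account follows those 23. They were taken by the host symbol Rere in any class other than antisense, and Rere had 0 antisense circRNAs. The gene was chosen by its number of circRNAs and reads in these libraries, so both numbers are descriptions and were not tested. The libraries came from spinal cord of Wistar rats aged 8 weeks. In 3 libraries, called SCI, the cord had been transected, and in 3, called sham, the rats had a laminectomy, which opens the vertebral arch, and no cord injury. The study asks which circRNAs differ after the injury. The time after surgery was not given in the sources used here. On whether the transection was complete, the series title and its design text can be read differently. No label says in words that each library is 1 rat, and the p-values therefore rest on the spread of libraries, which may be technical.

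Rere encodes a nuclear corepressor of the atrophin family. The protein recruits the histone deacetylases HDAC1 and HDAC2 to chromatin, and in mice it is needed for normal retinoic acid signalling in the embryo. A circRNA arises when the splice donor at the end of an exon joins the acceptor at the start of the same or an earlier exon. Reads across such a back-splice count circles and not the linear mRNA of the gene, whose level is not measured in this table.

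Depth was 21255, 20847 and 19603 back-splice reads in SCI libraries, against 11631, 9805 and 12722 in sham libraries. Sham replicate 3 had the most reads of the sham libraries but the fewest circRNAs, 2131, against 2556 and 2775 in sham replicates 1 and 2. It was also the library least like the others over the table, so values that rest on it may not be particular to Rere, which was not tested. Marker hosts of cord cell types were present as circRNAs: 11 of 17 neuronal hosts, 9 of 10 oligodendrocyte hosts and 7 of 9 astrocyte hosts had reads, with Rbfox3, Mobp and Aldh1l1 among those at 0. Oligodendrocyte hosts took 0.219% to 0.287% of reads in SCI libraries, against 0.173% to 0.204% in sham libraries, with no overlap. Most of their 216 reads were from Mbp, with 40, 31 and 25 in SCI, against 16, 11 and 13 in sham. As a share of library reads Mbp alone overlapped, and Cnp had reads in sham replicate 1 only. For single circRNAs with at least 10 reads, 11.2% were higher in every SCI library by share. Neuronal hosts took 0.574% to 0.806% in SCI and 0.490% to 0.707% in sham, and astrocyte hosts 0.122% to 0.182% in SCI and 0.126% to 0.286% in sham, both with overlap. Of 7 endothelial and pericyte hosts, 2 had reads, at 0.0188% to 0.0288% in SCI and 0.0612% to 0.0946% in sham, again with no overlap. They were Flt1, with 2, 6 and 4 reads in SCI, against 8, 1 and 10 in sham, and Tek. Tek had 2, 0 and 0 in SCI, against 3, 5 and 0 in sham, and each host alone overlapped. No share over the whole table was taken for sums of hosts or for values lower in every SCI library. Whether the gap of the endothelial and pericyte sum is unusual is therefore not known. Hosts of microglia and macrophages had 2 reads in SCI (0 in sham), those of skeletal muscle 7 (0 in sham), those of red blood cells 3 (0 in sham) and those of Schwann cells 0 (2 in sham). The part of these differences in the Rere values was not tested. In tissue of mixed cells, fewer cells of a type and less RNA per cell cannot be told apart.

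The 23 Rere circRNAs were built from a small set of back-splice sites used in many combinations. All lie on the plus strand of chromosome 5, all are assigned to the same RefSeq transcript, and they use 10 start sites and 9 end sites, numbered here S1 to S10 and E1 to E9 from upstream to downstream. On the plus strand a start site is the acceptor side of the back-splice and an end site the donor side. The start sites used by more than 1 circRNA are S1 at 171084353, S2 at 171115143, S3 at 171145648, S4 at 171145662, S5 at 171147882 and S6 at 171155252. The shared end sites are E3 at 171155356, E4 at 171176730, E5 at 171187239, E6 at 171210063 and E8 at 171244419. Positions are as the table gives them, counted from 1, and the build behind them was not given in the sources used here.

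Of the 30 pairs possible between shared starts and shared ends, 17 were found, and the circles they form held 591 of the 632 Rere reads, 93.5%. Each of these 17 circles spans the interval from S6 to E3, which is 105 bases long. Of the 23 circRNAs, 19 shared their start with another and 19 shared their end, and 2 shared neither site. In class, 18 were exonic with 616 reads, 4 overlapped the gene in sense with 14 reads and 1 was intronic with 2 reads. A circBase identifier, which marks a circle already catalogued, was given to 17 of the 23 (73.9%), against 39.9% of all circRNAs in the table. Other hosts with many circRNAs had like or higher shares, such as 87.5% for Atrnl1, 78.9% for Ash1l and 75% for Ralgapa1. The 17 Rere circRNAs with one held 617 reads, and the 6 without an identifier held 15 in all and at most 5 each.

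**Figure D1:**
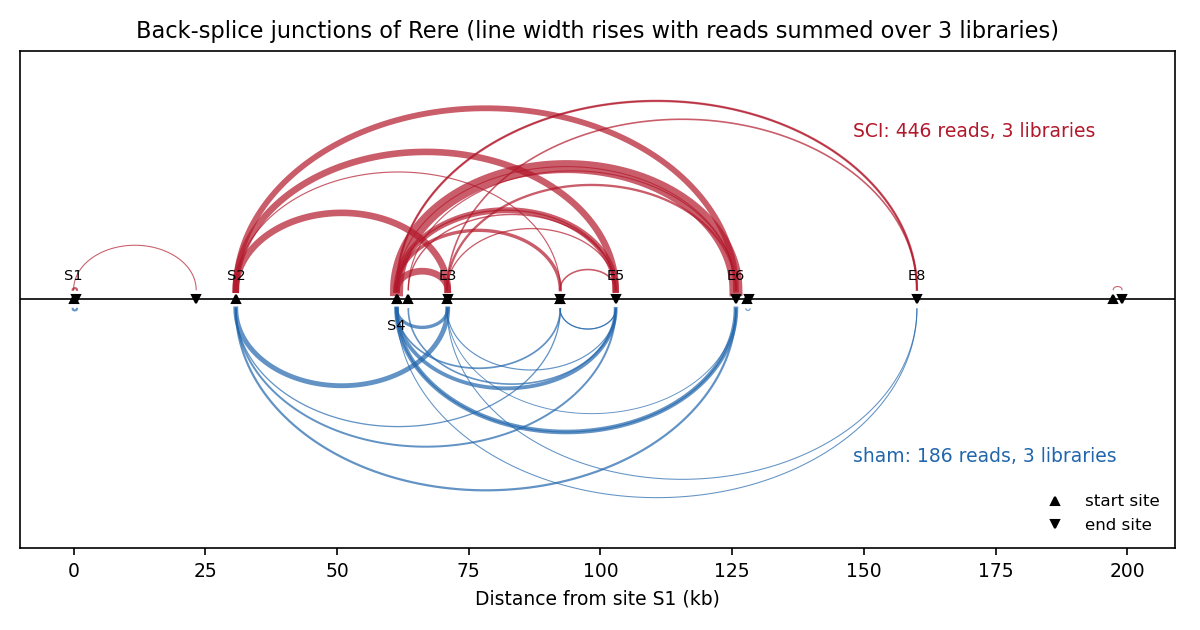
Each arc joins the start and end site of a Rere circRNA, plotted by distance from site S1 in kb, with SCI reads above the line and sham reads below, and line width rising with the reads summed over 3 libraries. The SCI libraries gave 446 reads and the sham libraries 186, and in both groups the widest arcs leave S2 or S4 and land on E3, E5 or E6.

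The start sites S2 and S4 carried most of the circles. S4 held 327 reads in 5 circRNAs and S2 held 207 reads in 4, together 534 reads or 84.5% of Rere reads. At the other side, E6 held 215 reads, E5 167 and E3 158, together 85.4%. E5 was the most shared site, with 7 circRNAs, followed by S4 and E6 with 5 each.

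The most-read circle ran from S4 to E6 (chromosome 5, 171145662 to 171210063, exonic, predicted spliced length 681 bases). Its reads were 40, 25 and 40 in SCI libraries, against 7, 19 and 7 in sham libraries, 138 reads in all and 21.8% of Rere reads. Every SCI library held more of its reads than any sham library, although as a share of library reads the groups overlapped because sham replicate 2 reached 0.194%, above the 0.12% of SCI replicate 2. It was the 61st most-read circRNA of the table.

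The circle from S2 to E3 (171115143 to 171155356, 434 bases) came next with 15, 17 and 18 reads in SCI, against 3, 14 and 18 in sham. In raw reads its highest sham library equalled its highest SCI library. As a share of library reads, sham replicates 2 and 3, at 0.143% and 0.141%, lay above every SCI library (0.0706% to 0.0918%). Sham replicate 1, at 0.0258%, lay below them all. The circle from S4 to E3 (171145662 to 171155356, 308 bases) had 26, 10 and 15 reads in SCI, against 4, 9 and 9 in sham. It shares its end with the circle from S2 to E3 and is shorter by the 126 bases between S2 and S4 in the spliced order.

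Close behind was the circle from S4 to E5 (171145662 to 171187239, 582 bases), with 16, 6 and 23 reads in SCI, against 11, 7 and 8 in sham. Its SCI libraries lay on both sides of the sham libraries. The circle from S2 to E5 (171115143 to 171187239, 708 bases) had 24, 7 and 19 reads in SCI, against 4, 3 and 3 in sham. Here all SCI libraries exceeded all sham libraries in reads, but SCI replicate 2, at 0.0336% of its reads, lay just under sham replicate 1 at 0.0344%. These 5 circles were the ones seen in all 6 libraries, and they held 427 reads, 67.6% of the Rere total.

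Among the other 18 circRNAs, reads ran from 2 to 55 and summed to 205. The circle from S2 to E6, the longest in predicted spliced length at 807 bases, had 18, 11 and 14 reads in SCI, against 7, 5 and 0 in sham. That from S4 to E4 had 5, 7 and 10 in SCI and 2, 0 and 6 in sham. Circles from the lesser start sites were read unevenly over the libraries. S6 gave 30 reads in 3 circRNAs, and its circle to E8 had 1, 5 and 1 reads in SCI, against 0, 0 and 2 in sham. S5 gave 15 reads, with 4, 0 and 1 in SCI and 0, 2 and 5 in sham for its circle to E5, which had more reads in sham than in SCI despite the lower sham depth. S7 gave 10 reads, 5, 2 and 0 in SCI and 3, 0 and 0 in sham, all to E5. None of these 3 circles was seen in every library of a group except S6 to E8 in SCI. Of all 23, 11 had fewer than 10 reads and held 46 reads together.

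**Figure D2:**
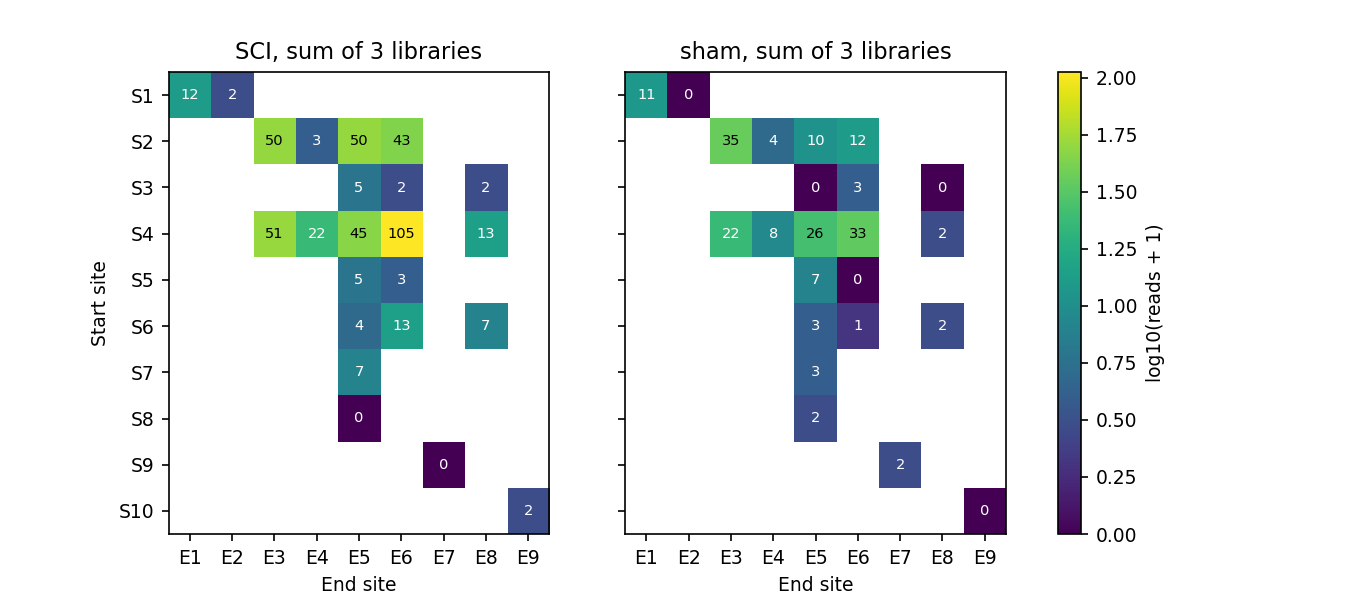
Reads of each Rere circRNA by start site (rows) and end site (columns), summed over 3 SCI libraries on the left and 3 sham libraries on the right; colour is log10 of reads plus 1, and blank cells are pairs not in the table. The S4 to E6 circle holds 105 reads in SCI and 33 in sham, and in sham the S2 to E3 circle is the highest with 35.

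The predicted lengths of the exonic circles fitted a single chain of exons. For the 15 exonic circRNAs linked by shared sites, 9 offsets reproduced all 15 lengths with a largest deviation of 0 bases. In that chain the start sites are separated by 126, 106, 97 and 105 bases of spliced sequence from S2 through S4, S5 and S6 to S7, and the end sites by 49, 225, 99 and 81 bases from E3 through E4, E5 and E6 to E8. The genomic distances between the same sites are far larger, from 2220 to 34356 bases. The interval from S6 to E3 (105 bases) and that from S7 to E4 (49 bases) equal their steps in the chain, as a single uninterrupted exon would. How the lengths were predicted is not stated. Lengths summed over the annotated exons of a single transcript would fit such a chain exactly, so the fit is a description and no test. The lengths do not show which exons each circle retained. Predicted lengths of exonic circles ran from 274 to 807 bases, with a median of 582 weighted by reads. Of these 18 lengths, 9 (50%) were multiples of 3, against 37.3% of all exonic circRNAs in the table.

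A few junctions lay just beside a major site. S3 is 14 bases upstream of S4 and was used by 3 circRNAs, all classed as sense overlapping, that ended at E5, E6 and E8, sites that S4 also used. They had 12 reads, 3.54% of the 339 reads at S3 and S4. S8 lies 3 bases downstream of S7, and each site was joined to E5, with 2 reads and 10 reads. The predicted lengths of these offset circles equal their genomic spans, so they are not spliced lengths. Whether they are separate acceptors or alternative placements of reads was not tested.

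The remaining circles shared no site with the 17 built from shared starts and ends. A single interval of 466 bases, S1 to E1 (171084353 to 171084818), had 7, 4 and 1 reads in SCI, against 0, 0 and 11 in sham. Sham replicate 3 thus held nearly as many reads as all SCI libraries together, while the other two sham libraries held none. S1 was joined to E2 by 2 reads of SCI replicate 1 and to no site further downstream. The exonic circle from S10 to E9 (171281683 to 171283352) and the intronic one from S9 to E7 (171212221 to 171212456) had 2 reads each, in SCI replicate 3 and in sham replicate 1.

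Pooled over the 6 libraries, reads from S2 and from S4 were spread differently over the ends. Of 207 reads starting at S2, 41.1% ended at E3 (95% Wilson interval 34.6 to 47.9) 29.0% at E5 and 26.6% at E6 (21.0 to 33.0). Of 327 reads starting at S4, 22.3% ended at E3 (18.1 to 27.1) and 42.2% at E6 (37.0 to 47.6). The E3 share was higher from S2 than from S4 in 5 of 6 libraries, and the E6 share was lower from S2 in 5 of 6. The exceptions were SCI replicate 1 for E3 and sham replicate 1 for E6. The leading end by read count varied between libraries. From S2, E3 led in SCI replicate 2 and sham replicates 2 and 3, E5 in SCI replicates 1 (42.1%) and 3 (35.2%), and E6 in sham replicate 1 (46.7%). The pooled E3 share from S2 was 34.2% in SCI, equal to that of E5, against 57.4% in sham. In sham replicate 3 E3 led from S2 (75%) and from S4 (30%) alike. E8 took 15 of the S4 reads, 4.59%, and 0 of the 207 S2 reads, which allows a share of up to 1.45%. These shares were chosen after their values were seen and carry no test, and the intervals cover counting error only.

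The share of reads by start site was steadier over the libraries than the share by end site. S2 took 31.5%, 34.0% and 33.3% of Rere reads in SCI libraries, against 28.8%, 35.5% and 33.3% in sham libraries. S4 took 50.8%, 50.5% and 56.8% in SCI and 50%, 56.5% and 41.7% in sham. E6 took 36.5%, 35.9% and 38.9% in SCI, within 3 points of each other, and 28.8%, 43.5% and 9.72% in sham. The 95% Wilson interval of the last value, 4.79% to 18.7% from 7 of 72 reads, lay below that of sham replicate 2, 31.9% to 55.9%. E5 ranged from 16.5% to 44.2% and E3 from 13.5% to 37.5% over the 6 libraries, with the lowest E3 and the highest E5 share in sham replicate 1. By read count the 3 sham libraries each had a different leading end: E5 in replicate 1, E6 in replicate 2 and E3 in replicate 3, while E6 led in every SCI library. In every library, though, the 95% Wilson interval of the leading end overlapped that of the next. In sham replicate 2, for example, E6 had 27 reads (31.9% to 55.9%) and E3 23 (26.2% to 49.5%). The counts thus do not resolve which end led.

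**Figure D3:**
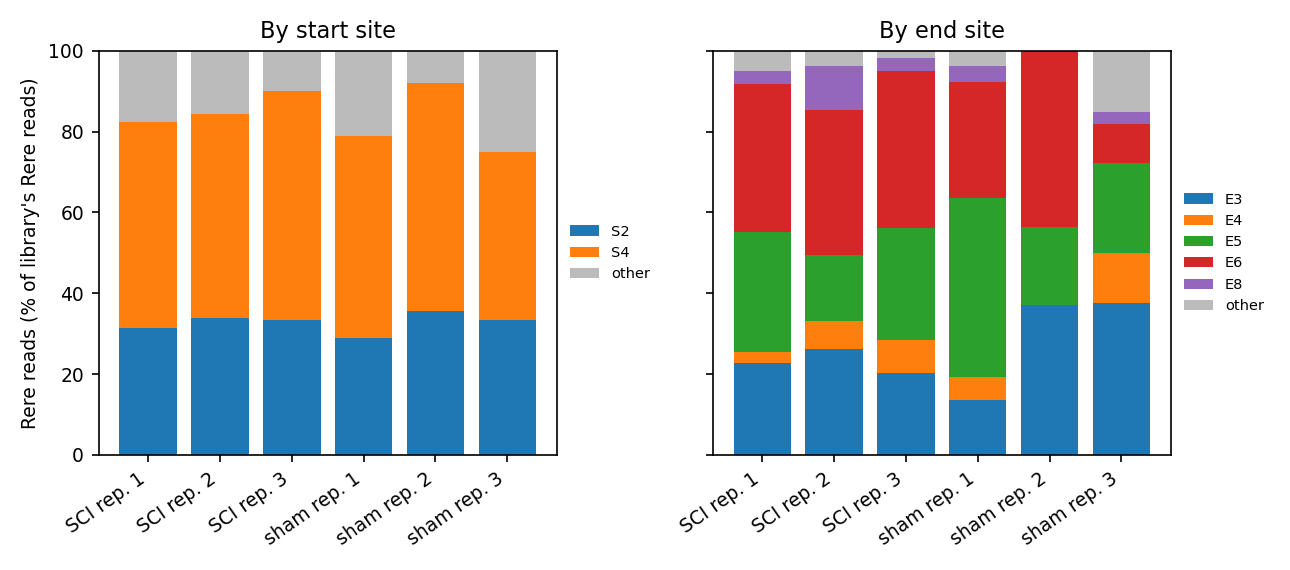
Stacked bars give the percent of each library's Rere reads by start site on the left and by end site on the right, with SCI libraries before sham libraries. S2 stays between 28.8% and 35.5% in all 6 libraries, while E6 spans 9.72% to 43.5%.

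No shift between Rere circRNAs passed the test after injury. The start site, end site and circle compared here were those with most reads over the same 6 libraries. SCI libraries gave 446 of those 632 Rere reads. In sham libraries the S2 to E3 circle had more reads than S4 to E6, 35 against 33. The choice thus leaned on SCI reads, and a higher share in SCI is no support for a shift. S4 took 52.7% ± 3.55 of Rere reads in SCI libraries, against 49.4% ± 7.41 in sham libraries (n = 3 each, SD; two-sided exact permutation p = 0.4). E6 took 37.1% ± 1.58 in SCI libraries, against 27.4% ± 17.0 in sham libraries (n = 3 each, SD; exact permutation p = 0.5). The S4 to E6 circle took 23.7% ± 1.39 in SCI, against 17.9% ± 11.2 in sham (n = 3 each, SD; exact permutation p = 0.4). Adjusted over 4 percent measures of Rere, each p became 0.5, and with 3 against 3 libraries none can be below 0.10. The sign for S4 rests on sham replicate 3, without which the difference in share was -0.52 percentage points. Without that library the difference for E6 was 0.894 percentage points, against 9.72 with it, and that for the S4 to E6 circle 1.63, against 5.74. Without sham replicate 2 these differences were 17.8 points for E6 and 12.1 points for the S4 to E6 circle, and without sham replicate 1 that of the circle was 3.50. In edgeR's diffSpliceDGE, which asks whether circRNAs of a host change their proportions, the host-level F test for the 7 Rere circRNAs that passed the filter gave adjusted p = 0.943 over 69 hosts. None of those hosts passed (0%), and 5.80% had an unadjusted p under 0.05. Single shares moved by -0.54 (S2 to E3) to 0.68 (S2 to E5) on the log2 scale, each with adjusted p = 0.987 by edgeR's diffSpliceDGE. None of the 7 had an unadjusted p under 0.05, against 1.16% of the 173 circRNAs compared with others of their host.

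Summed over the 23 circRNAs, Rere was not called different between SCI and sham cord. Its reads came to 181, 103 and 162 in SCI, against 52, 62 and 72 in sham. As a share of back-splice reads that was 0.852%, 0.494% and 0.826% in SCI libraries against 0.447%, 0.632% and 0.566% in sham libraries. SCI replicates 1 and 3 were the highest, and SCI replicate 2 fell among the sham libraries. The means were 0.724% ± 0.200 in SCI and 0.548% ± 0.0939 in sham (n = 3 each, SD; two-sided exact permutation p = 0.3, 0.5 adjusted). The raw excess of reads, 2.40-fold between the group means, thus came to 1.32-fold after division by library totals, which were 1.81-fold higher in SCI.

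**Figure D4:**
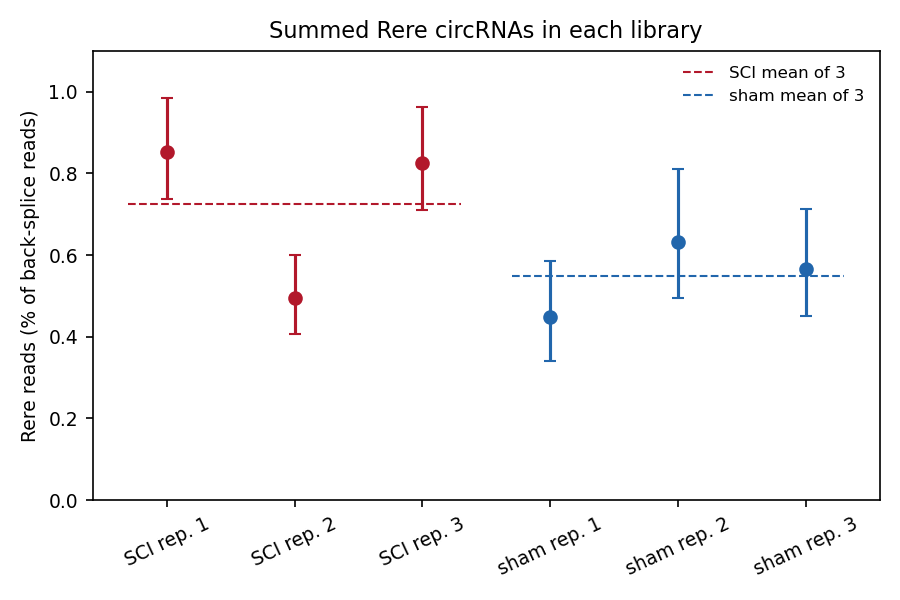
Points give the summed Rere reads as a percent of back-splice reads in each library, bars the 95% Wilson interval (counting error only) and dashed lines the group means, with SCI libraries on the left and sham libraries on the right. SCI replicate 2 at 0.494% lies within the sham range of 0.447% to 0.632%.

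In edgeR's quasi-likelihood test over 647 hosts, Rere stood at 11896 ± 3352 CPM in SCI libraries, against 8835 ± 1538 CPM in sham libraries (n = 3 each, SD), where CPM are reads scaled to a common total of the reads that passed the filter. The log2 fold change was 0.43 (SE 0.26, 95% interval -0.12 to 0.98, adjusted p = 0.881), that is a 1.35-fold level with an interval of 0.918 to 1.98. Its own p was not under 0.05 before adjustment. Of these hosts 0.309% were called, 6.49% had an unadjusted p under 0.05, and the median log2 fold change of all of them was 0.14. The Rere value was 0.68 without SCI replicate 2 and 0.71 without sham replicate 2, with unadjusted p = 0.017 and 0.016 by edgeR. Without the filter it was 0.78, with unadjusted p = 0.00059 and adjusted p = 0.239 by edgeR. The unadjusted p thus depended on the setting, and no alternative brought the adjusted p past the threshold.

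Of the 23 circRNAs, 7 passed the filter on low counts and were tested, with 512 reads or 81.0% of the Rere total. By edgeR's quasi-likelihood test 0 were called, 0 had an unadjusted p under 0.05, and DESeq2 and limma-voom also called 0. Of all 484 circRNAs tested, 0.207% were called and 6.20% had an unadjusted p under 0.05. The S2 to E5 circle had the largest log2 fold change of the 7, 1.39 (SE 0.75, adjusted p = 0.772 by edgeR). It did not pass the filter when SCI replicate 1 or SCI replicate 3 was left out, but passed without any of the sham libraries. Its place among the 7 thus rested on its SCI reads, which can favour a high log2 fold change. That of S4 to E6 was 0.72 (SE 0.51), and 1.62 without sham replicate 2, where it was also not called (unadjusted p = 0.0072, adjusted p = 0.245 by edgeR). S2 to E6 had 0.87 (SE 0.87), and 0.40 without sham replicate 3 and 1.66 without sham replicate 1. S4 to E4 had 0.62 (SE 1.06), and 0.22 without sham replicate 2 and 1.95 without sham replicate 3. S4 to E3 stood at 0.29 (SE 0.63), S4 to E5 at -0.10 (SE 0.65) and S2 to E3 at -0.37 (SE 0.61). All 7 lie on shared sites, so they are not independent of each other, and their signs changed with the library left out in 3 cases: S2 to E3, S4 to E3 and S4 to E5. The 16 that were not tested had 2 to 23 reads each and 80 reads in SCI and 40 in sham together.

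**Figure D5:**
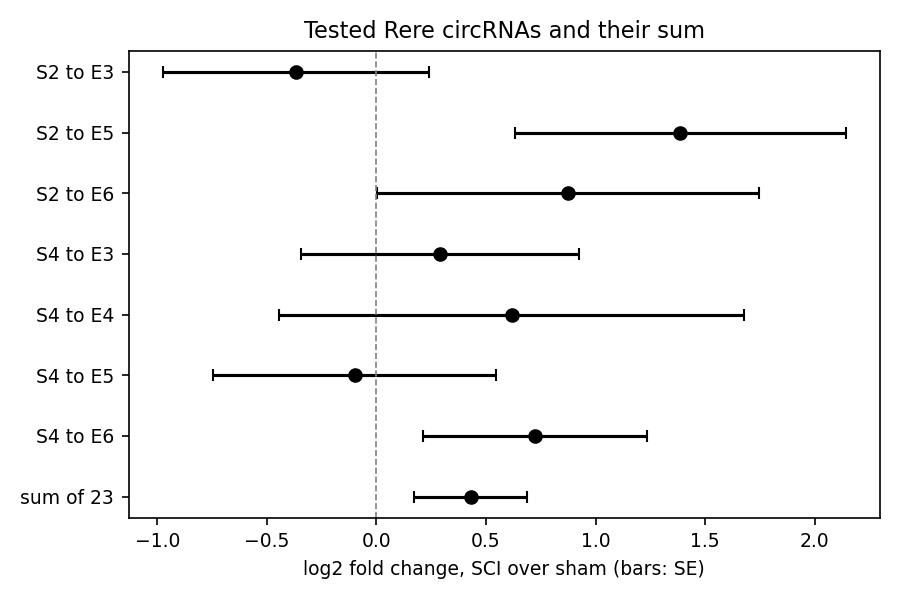
Points give the log2 fold change of SCI over sham for the 7 tested Rere circRNAs and for the sum of all 23, from edgeR fits over all circRNAs and over all hosts; bars are standard errors. The values run from -0.37 to 1.39, the sum lies at 0.43, and none passed the threshold.

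Among 12 Rere circRNAs with at least 10 reads, 5 had a lowest SCI library above the highest sham library in raw reads. The background for that count is 23% of all 1677 circRNAs with at least 10 reads, in libraries of unequal depth, and 36.8% of the 484 tested, where Rere had 4 of 7. As a share of library reads 1 of the 12 kept a gap, against 11.2% of all, and 0 of the 7 tested, against 10.5%. This was the S4 to E8 circle (171145662 to 171244419, 762 bases), with 5, 4 and 4 reads in SCI, against 2, 0 and 0 in sham. Its shares were 0.0192% to 0.0235% in SCI. A count of 0, read as up to 3 counts, allows 0.0306% in sham replicate 2 and 0.0236% in sham replicate 3. The gap is therefore not resolved. The ratio of this circle relative to library totals was 3.60 with an exact 95% interval of 0.815 to 32.8. The S6 to E6 circle, named after its values were seen, had 6, 0 and 7 reads in SCI, against 0, 1 and 0 in sham, a ratio of 7.20 (exact 95% interval 1.08 to 306, counting error only), with SCI replicate 2 at 0. Of the 23, 5 with 14 reads in all were found only in SCI libraries (21.7%, against 49.2% of all circRNAs in the table), and 2 with 4 reads only in sham libraries (8.70%, against 22.0% of all).

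Each SCI library held 16, 14 and 16 of the 23 circRNAs, and each sham library 14, 9 and 10. Thinned to 9805 back-splice reads, the expected numbers were 14.6, 12.4 and 13.6 in SCI and 13.6, 9 and 9.92 in sham, so that sham replicate 1 lay within the SCI range. The effective number of Rere circRNAs, the inverse of the chance that 2 reads drawn with replacement come from the same circRNA, was 8.02 ± 0.412 in SCI, against 7.19 ± 1.93 in sham (n = 3 each, SD). No test was made on these numbers, since the gene was picked for its count of circRNAs.

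Set beside the 17 other hosts with 15 or more circRNAs, Rere had 1.21 circRNAs per site used. That was hardly above Ubn2, a histone chaperone subunit gene, at 1.20, while LOC102557203, with 25 circRNAs, had 0.543. The ratio rises with the circRNA count for which Rere was chosen. It also counts S3 and S8 as sites of their own, and whether they are separate acceptors was not tested. No lead over Ubn2 is therefore drawn from it. Rere and Atrnl1 each had 5 circRNAs present in all 6 libraries, against 0 for LOC102557203 and 1 for the presynaptic scaffold gene Rims2. In reads Rere, with 632, came after Ralgapa1, a subunit gene of the RalGAP complex with 680, and number 6 of all 4443 hosts. The top circle of Ralgapa1 held 59.4% of that host's reads, and that of Agtpbp1, a tubulin deglutamylase gene, 71.9%, against 21.8% for Rere, which was number 9 of the 18 from the highest. Lower shares included 12.1% for Vps13a, a lipid transfer protein gene, and 12.9% for Myo9a, a myosin gene. The effective number over all libraries was 8.76 for Rere, number 10 of the 18 from the highest. These are descriptions with no test, over hosts that differ in reads.

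Hosts from a list of genes of the same pathway, called partner hosts here, gave no call. Whether their proteins bind the Rere protein was not assessed. Of 45 listed genes for corepressor, histone deacetylase, retinoid receptor and related proteins, 22 had a circRNA and 4 passed the filter. By edgeR, DESeq2 or limma-voom 0 were called (0 with unadjusted p under 0.05 by edgeR). Hdac2, a histone deacetylase gene, had 5, 11 and 16 reads in SCI, against 8, 4 and 31 in sham, all from 1 circRNA (log2 fold change -1.15, SE 0.69). Sham replicate 3 was far above the other libraries, and without it the log2 fold change of Hdac2 was 0.0027. Ehmt1, a histone H3 lysine methyltransferase gene, had 14, 5 and 7 reads in SCI, against 5, 7 and 10 in sham (log2 fold change -0.58, SE 0.71). Gatad2b, a NuRD complex subunit gene, had 9, 12 and 10 reads in SCI, against 4, 2 and 1 in sham (log2 fold change 1.28, SE 0.88). The acetyltransferase gene Ep300 had 6, 4 and 5 reads in SCI, against 4, 6 and 9 in sham (log2 fold change -1.14, SE 0.81). The lowest adjusted p of the 4 was 0.881 by edgeR, and their median log2 fold change was -0.86, against 0.14 for all hosts tested. Without sham replicate 3 the median of the 4 was -0.17. Atn1, the other atrophin gene, and Hdac1 had 0 circRNAs in the table.

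The hosts whose levels over the 6 libraries were most like that of Rere differed from it by 0.187 to 0.238 (root mean square of log2 CPM centred on each host), out of 154 hosts with 100 or more reads and a median of 0.501. They were Eri3, an exoribonuclease gene, at 0.187, Anks1b, a postsynaptic protein gene, at 0.215, Ano4, an anoctamin gene, at 0.221, Epb41l3, a membrane skeleton protein gene, at 0.224, and the histone deacetylase gene Hdac4 at 0.238. Eri3 had 96, 67 and 91 reads in SCI, against 40, 38 and 38 in sham, with SCI replicate 2 the lowest of its group, as for Rere. Hdac4 had a log2 fold change of -0.02, against 0.43 for Rere. Relative to its own mean, Hdac4 stood highest in sham replicate 2. The order of likeness was not tested.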

How the data were processed

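Back-splice reads were measured in 3 SCI and 3 sham spinal cord libraries. Per the file headers, the authors deposited counts of junction reads per circRNA, which are not normalised, and log2 CPM values made from them with edgeR, which were not used here. The lengths of circles are a further deposited column of other values, used only as a description. Bowtie 0.12.2 and the genome build mm8, a mouse build, are named in the submitters' processing notes, while the caller and the coordinates' build were not given in the sources used here. Per the labels' protocols, RNA was extracted with Trizol and libraries made with an Illumina TruSeq RNA kit, with no mention of a step against linear RNA. Every circRNA in the table has at least 2 reads in some library.

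Host sums add all circRNAs of a host except antisense ones. Tests used edgeR 4.0.16 (quasi-likelihood F test and diffSpliceDGE) in R 4.3.3 on the whole table, with TMM normalisation and group alone in the model. The filter was filterByExpr (min.count 5, min.total.count 15), and calls needed adjusted p under 0.05 (Benjamini-Hochberg). SE is the log2 fold change over the root of F. CPM is over reads that passed the filter. Percent measures were compared with exact permutation tests (SciPy 1.17.1). Thinning used the exact hypergeometric expectation. Wilson and exact intervals are at 95%, and a count of 0 is read as up to 3 counts. Reads carry no molecular identifiers, so intervals and floors cover counting error only. Alternatives used DESeq2 1.42.0 and limma 3.58.1. Chi-square per degree of freedom was 2.00 to 3.57 over the 15 pairs of libraries, above sampling noise. Pairs with sham replicate 3 stood at 2.98 to 3.57, and all other pairs at 2.00 to 2.60. The scripts were tested on simulated data.

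The members and lists were chosen with earlier results of these data known. The rule for names took the 5 most-read Rere circRNAs and any with unadjusted p under 0.05, the 5 tested partner hosts with most reads (4 were tested), the 5 most like hosts, and hosts with 15 or more circRNAs. Other names were chosen after their values were seen.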

Additional observations from a re-analysis of the deposited data

How the results depend on the processing

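The direction of the Rere sum was kept in all 16 alternatives (log2 fold change 0.30 to 0.78; 0.33 to 0.71 with a library left out), with adjusted p from 0.239 to 1.000 across edgeR, DESeq2 and limma-voom. The value of 0.78 came without the filter, where the median of the same hosts moved by 0.34, and Rere stood 0.29 above the median with and without it. No alternative called a Rere circRNA or a partner host, while the calls over all hosts ran from 0 to 8, against 2. The host-level test of shares kept an adjusted p between 0.733 and 0.992 by edgeR. Of 85 alternatives for the 7 single circRNAs, 78 kept the direction and 7 turned it: S2 to E3 stood at 0.20 without the filter, 0.02 without sham replicate 2 and 0.086 without sham replicate 3, S4 to E3 at -0.030 without SCI replicate 1, and S4 to E5 at 0.50 without the filter, 0.34 without SCI replicate 2 and 0.27 without sham replicate 1. A circRNA has no value in an alternative where it failed the filter. S2 to E5 failed it without SCI replicate 1, without SCI replicate 3 and with the stricter filter. In its 10 other alternatives it ranged from 1.11 to 1.98. S4 to E4 failed the filter without SCI replicate 3. With no filter, unadjusted p by edgeR was 0.014 for S2 to E5 and 0.020 for S4 to E6, and neither was called. With a library left out, S2 to E3 ranged from -0.67 to 0.086, S4 to E3 from -0.030 to 0.70 and S4 to E5 from -0.55 to 0.34. The cause was not tested. The S4 share difference of 3.33 percentage points was -0.23 without the most-read circRNA and ranged from -0.52 to 6.87 with a library left out. The replicate numbers are not said to pair the libraries, and same-numbered libraries correlated at -0.01 to 0.06 in their deviations. With the replicate block the Rere sum stood at 0.41 (adjusted p = 0.981 by edgeR), 0 Rere circRNAs and 0 partner hosts were called, and the F test of shares stood at adjusted p = 0.938 by edgeR. With 52 to 72 Rere reads in a sham library, a change of site use within the Wilson intervals was not detectable.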
